A study of Homo sapiens with 4 samples.

Results

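The giant genes described here are the 309 autosomal protein-coding genes whose record in GENCODE release 44, mapped to the human genome build hg19, spans 500 kb or more, out of 19229 autosomal protein-coding genes. A further gene of this length was left out and is not reported here. In the 3 lists of Star-PAP HITS-CLIP peaks, 79430 of 1031599 summits lay inside these genes, with 39722 of 411400 in the control list, 20057 of 325797 in the siStar-PAP list and 19651 of 294402 in the siRBM10 list. Every sample was made from HEK293, an established line of human embryonic kidney cells. Star-PAP was pulled down with its antibody after crosslinking with ultraviolet light at 400 mJ per cm2, either from cells labelled control, from cells given siRNA against Star-PAP (siStar-PAP) or from cells given siRNA against RBM10 (siRBM10), and siRNA-treated cells were harvested 48 h after transfection. The sample labels do not say whether control cells received a control siRNA. The fourth sample, an IgG pull-down, has no list of its own that was analysed here and entered through the peak calling of the authors, in which it was the reference. Each condition was 1 library, so differences between conditions rest on single libraries and were not tested. Intervals are at a level of 95% and cover counting error only.

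Star-PAP is a poly(A) polymerase that adds the tail to a subset of mRNAs, and RBM10 is an RNA-binding protein with known roles in splicing. HITS-CLIP crosslinks a protein to the RNA it touches and sequences the RNA that comes down with it. Very long genes consist almost wholly of introns, so most of their nascent transcript is removed by splicing. Many of them code for adhesion molecules, ion channels and scaffolds of nerve cells. The RNA level of these genes was not measured in the files used here, so the amount of transcript and its binding cannot be told apart. The lists do not measure the knockdowns themselves. They give no strand, and a summit may belong to an RNA of either strand.

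Each summit carries the score of its peak, the −log10 of the p-value from MACS2, of which the lowest was 1.30. The sequences of the summits with the highest scores in introns of giant genes are shown first, because their make-up differed between the libraries. Windows of 61 nt centred on the summit were read from hg19 on the strand of the gene. In the control library the highest scores were 51.74 in CDH4, which codes for R-cadherin, and 29.61 in TRPM3, which codes for a cation channel. Capitals mark words of 6 letters that occur more than once in the window.
CDH4 intron, chr20:60019523-60019583 (+): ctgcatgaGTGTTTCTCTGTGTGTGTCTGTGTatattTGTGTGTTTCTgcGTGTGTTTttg
TRPM3 intron, chr9:73897281-73897341 (-): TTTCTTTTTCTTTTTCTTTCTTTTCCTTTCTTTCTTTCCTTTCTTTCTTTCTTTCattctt

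In the siStar-PAP library the highest intronic score was 13.92, in DLG2, which codes for the postsynaptic scaffold PSD-93. The next was 8.60 and was shared by LPP and DPP6. Capitals mark the hexamer AATAAA, the canonical polyadenylation signal, in DLG2, where words that occur 2 times are left unmarked. How often windows of these introns hold AATAAA was not counted. The windows in LPP and DPP6 held no repeated word and no AATAAA.
DLG2 intron, chr11:85194964-85195024 (-): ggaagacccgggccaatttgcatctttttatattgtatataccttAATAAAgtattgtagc
LPP intron, chr3:188222325-188222385 (+): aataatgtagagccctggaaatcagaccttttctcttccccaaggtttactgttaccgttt
DPP6 intron, chr7:153618969-153619029 (+): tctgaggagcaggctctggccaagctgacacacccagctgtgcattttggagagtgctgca

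In the siRBM10 library the highest intronic scores lay right beside coding exons. They were 25.78 in RUNX1, 10 bp from coding sequence, and 16.39 in ERBB4, 20 bp from coding sequence. Capitals mark coding bases.
RUNX1 exon and intron, chr21:36231731-36231791 (-): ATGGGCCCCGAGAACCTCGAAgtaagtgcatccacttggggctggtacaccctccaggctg
ERBB4 exon and intron, chr2:212812105-212812165 (-): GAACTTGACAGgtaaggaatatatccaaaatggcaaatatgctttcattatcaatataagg

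Sites with a summit in all 3 libraries within 500 bp are shown for the 4 whose lowest score was highest. The scores were 8.65 in control, 3.44 in siStar-PAP and 9.27 in siRBM10 for HIVEP3, a zinc-finger protein. For PDE10A, a phosphodiesterase, they were 11.71, 8.07 and 6.86 in the same order. PTPRN2, a phosphatase-like protein of secretory granules, had 4.18, 4.84 and 3.88. SNX29, a sorting nexin, had 4.44, 4.87 and 4.50. Capitals mark repeated words as above, which fill most of the windows in HIVEP3, PDE10A and PTPRN2 and are missing in SNX29.
HIVEP3 intron, chr1:41994589-41994649 (-): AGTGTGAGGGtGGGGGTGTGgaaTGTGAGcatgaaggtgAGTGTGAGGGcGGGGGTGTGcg
PDE10A intron, chr6:166032914-166032974 (-): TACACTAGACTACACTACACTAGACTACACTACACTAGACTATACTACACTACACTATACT
PTPRN2 intron, chr7:158178787-158178847 (-): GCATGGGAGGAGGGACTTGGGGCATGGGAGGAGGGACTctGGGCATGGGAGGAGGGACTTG
SNX29 intron, chr16:12153424-12153484 (+): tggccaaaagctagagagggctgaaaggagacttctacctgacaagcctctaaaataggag

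Giant genes were long in their introns rather than in their exons. Their span ran from 501 kb in ANO5 to 2474 kb in RBFOX1, with a median of 716 kb, and 67 of them reached 1 Mb. The longest intron measured between 55.0 kb in DNAH14 and 1160 kb in ROBO2, with a median of 240 kb, and it was intron 1 in 100 genes. The plus strand held 165 genes and the minus strand 144. Chromosome 3 held the most, 37, and 4 pairs of records overlapped. Together the genes covered 255 Mb of determined sequence with a GC content of 38.8%. Exons of any annotated gene in these spans made up 5.77 Mb of it. Introns of shorter genes, the comparison used here, covered 881 Mb with a GC content of 42.1%.

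Over all summits of the lists, giant genes were densely covered in control cells and sparsely in both depletions, an order that turned around at a stricter p-value. Their summits per Mb numbered 156 (154 to 157) in control, 78.6 (77.6 to 79.7) in siStar-PAP and 77.1 (76.0 to 78.1) in siRBM10. Introns of shorter genes held 136, 145 and 124 per Mb, so the order of the lists was not the same there. The density of giant genes over that of shorter introns was 1.14 (1.13 to 1.16) in control, 0.543 (0.535 to 0.551) in siStar-PAP and 0.620 (0.611 to 0.629) in siRBM10. In the 67 genes of 1 Mb or more, the densities were 156, 65.7 and 65.8 per Mb. Introns of genes of 100 to 500 kb lay between both classes in the depletions, with 147, 125 and 111 per Mb. Giant genes made up 9.50% of autosomal bases and held 10.4% of the autosomal summits in control, 6.55% in siStar-PAP and 7.12% in siRBM10. As a ratio of these shares, siStar-PAP over control was 0.631 (0.621 to 0.642) and siRBM10 over control was 0.686 (0.675 to 0.698), and both ratios use the same control library. Between the depletions, siRBM10 over siStar-PAP, it was 1.09 (1.07 to 1.11).

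The control value depended on the score threshold. Of control summits in giant genes, 70.9% carried a single score of 1.33, while the commonest score was 2.92 in siStar-PAP and 3.25 in siRBM10, with 37.0% and 33.9% of the giant-gene summits. At a p-value of at most 0.01, a threshold that keeps 26.7% of the control, 91.7% of the siStar-PAP and 95.6% of the siRBM10 summits and is therefore not comparable between lists, the density of giant genes over shorter introns turned to 0.779 in control. The densities themselves were then 41.6 per Mb in control, 72.1 in siStar-PAP and 73.6 in siRBM10, with control lowest. In the depletions it stayed below 1 at this threshold, with 0.609 and 0.665.

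GC content moved with these densities. In introns of giant genes whose surrounding 10 kb had under 34% GC, summits per Mb were 169 in control, 39.7 in siStar-PAP and 29.8 in siRBM10. At 55% GC or more, they were 41.1, 234 and 192. In between, control was highest at 34 to 38% GC, with 181 per Mb, and mostly lower with each further class, while both depletion libraries were denser from class to class. Introns of shorter genes ran the same way, from 180 to 44.9 in control, from 46.4 to 299 in siStar-PAP and from 36.4 to 230 in siRBM10. When shorter introns were weighted to the GC classes of the giant genes, the giant genes stood at 0.944 (0.934 to 0.953) of the expected number in control, below 1 where the unweighted ratio lay above it. With the same weighting they stood at 0.741 (0.730 to 0.751) in siStar-PAP and 0.837 (0.825 to 0.849) in siRBM10. Density was lower in giant genes than in shorter introns in 8 of 11 GC classes in control and in 11 of 11 in both depletions. The part of GC content in the differences between libraries was not tested.

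**Figure D1:**
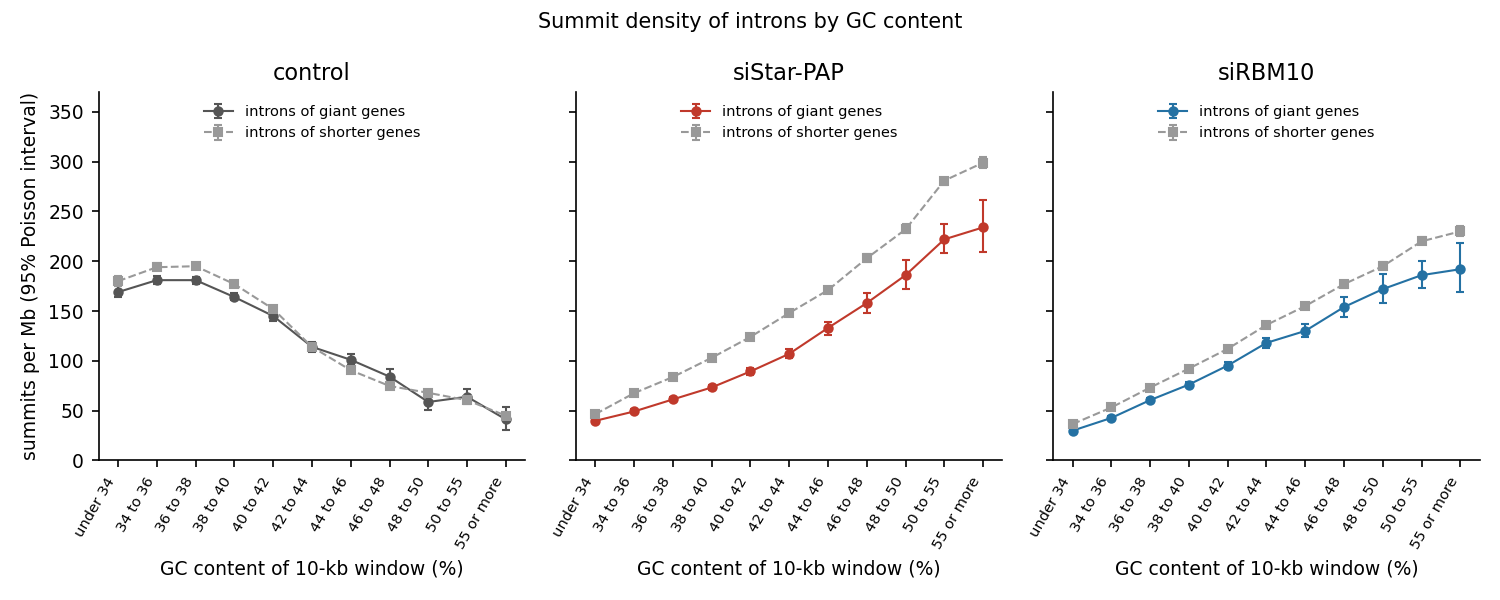
Summits per Mb in introns by the GC content of the surrounding 10 kb, in 1 panel per library, with introns of giant genes and introns of shorter genes as separate lines and 95% Poisson intervals. The control lines start at 169 and 180 in the lowest class, are highest between 34 and 38% GC and end at 41.1 and 44.9 in the highest class, the depletion lines rise, and the giant-gene line lies lower in every class of both depletions.

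Among the giant genes themselves, density followed GC content more closely than length. Over the 309 genes, which share their libraries and differ in base composition, Spearman's rho between density and GC content was −0.59 in control, 0.75 in siStar-PAP and 0.81 in siRBM10. With span it was 0.04, −0.24 and −0.27. In the 78 genes lowest in GC content, from 33.7 to 36.4%, the median was 175 summits per Mb in control, 46.9 in siStar-PAP and 43.8 in siRBM10. In the 77 highest, from 40.9 to 56.6%, the medians came to 119, 125 and 128 and no longer stood apart. Control was the densest library in 262 genes, siStar-PAP in 23 and siRBM10 in 23. Of the 22 genes with a GC content of 45% or more, control was the sparsest library in 21.

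**Figure D2:**
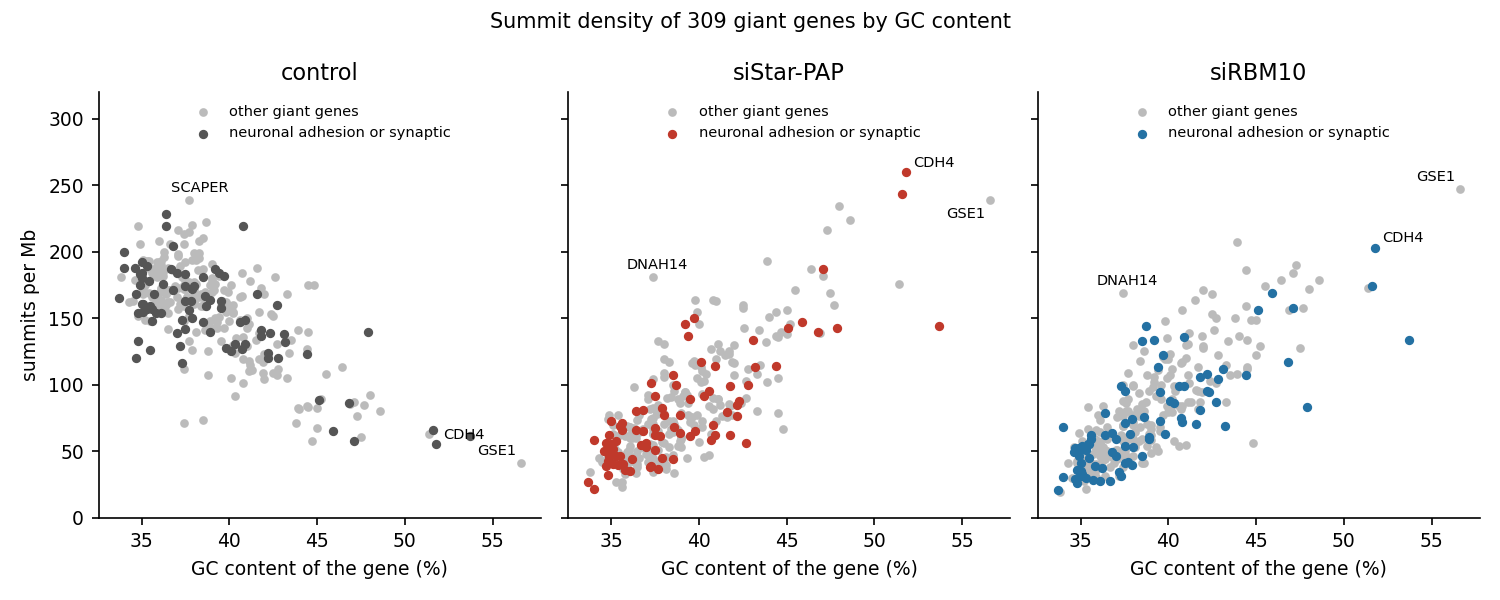
Summits per Mb of each of the 309 giant genes against the GC content of the gene, in 1 panel per library, with neuronal adhesion and synaptic genes in a separate colour. Control falls with GC content from a high plateau to 41.4 in GSE1, and the depletion libraries rise to 260 in CDH4 and 247 in GSE1.

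Control density ran from 41.4 per Mb in GSE1 to 239 in SCAPER, with a median of 162. The densest genes were of moderate or low GC content. SCAPER, which codes for a cyclin A-associated protein of the endoplasmic reticulum, lies on chromosome 15 from 76640245 to 77197785 and held 133 summits in control, 74 in siStar-PAP and 61 in siRBM10. GPHN, coding for gephyrin, the scaffold of inhibitory synapses, held 154, 54 and 53. SUGCT, a mitochondrial CoA transferase, held 161, 49 and 63. AKAP6, an anchor of protein kinase A, held 112, 22 and 30, and KHDRBS2, an RNA-binding protein, held 133, 45 and 26. In these 5 genes control lay at 219 per Mb or more and above both depletions.

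The 5 sparsest genes in control had the opposite order. GSE1, on chromosome 16 from 85203131 to 85709810, is the most GC-rich giant gene at 56.6% and held 21 summits in control, 121 in siStar-PAP and 125 in siRBM10. CDH4, on chromosome 20 from 59827317 to 60515673, held 38, 179 and 140. CACNA1C, the pore of an L-type calcium channel, held 42, 136 and 115. KSR2, a scaffold of the MAP kinase cascade, held 30, 72 and 77, and TRAPPC9, a subunit of a vesicle-tethering complex, held 44, 123 and 93. Their GC content was 44.7% or more, and both depletions lay above control in each. These genes and the densest ones were picked on control density, a choice that by itself favours the orders given.

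Between libraries, a gene was called different when its share of the autosomal summits differed at least 2-fold and at least 20 summits lay in it over both libraries, a rule that all 309 giant genes passed on number. On siStar-PAP the share was lower than in control in 137 giant genes, 44.3% (38.9 to 49.9) of them, against 15.8% of all 5297 autosomal protein-coding genes with enough summits. It was higher in 25 giant genes (8.09%), against 32.4% of all genes. On siRBM10 it was lower than in control in 121 giant genes, 39.2% (33.9 to 44.7), against 17.5%, and higher in 26 (8.41%), against 28.9% of all genes. Between siRBM10 and siStar-PAP, 0 giant genes were lower and 0 were higher, with a Wilson upper bound of 1.23% in each direction, against 3.04% and 1.67% of all genes. The background includes the 309 giant genes, but most of its genes are shorter. It held a median of 37.0 summits a gene over the control and siStar-PAP libraries, while the giant genes held 177. Counting error thus moves the background genes more. Both comparisons with control share the control library. The calls and the ratios of shares use every summit and were not repeated at a p-value of at most 0.01. In control that threshold keeps 26.7% of giant-gene summits and 33.6% of the whole list. On siStar-PAP it keeps 91.7% and 84.6%, and on siRBM10 95.6% and 90.5%. Low-scoring control summits thus weigh more in giant genes. With every list cut to its 294402 summits of highest score, 93 giant genes were lower and 16 higher on siStar-PAP than in control. On siRBM10, 110 were then lower and 22 higher. That cut still keeps many control summits of low score, and how far the calls depend on those was not tested.

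The ratio of shares for siStar-PAP over control had a median of 0.541 over the giant genes, with a range from 0.143 to 7.20, and was below 1 in 246 of them. Over all genes the median was 1.13. It was lowest in CADM2, a synaptic adhesion molecule of the immunoglobulin family on chromosome 3 from 85008140 to 86123579, where 210 control, 24 siStar-PAP and 34 siRBM10 summits gave 0.143 (0.0936 to 0.218). MARCHF1, a membrane ubiquitin ligase, held 143 control and 20 siStar-PAP summits, and RALYL, an RNA-binding protein, held the same numbers, each at 0.175 (0.109 to 0.279). The highest ratios lay in GC-rich genes. GSE1 reached 7.20 (4.53 to 11.4) and CDH4 5.89 (4.15 to 8.36). SHANK2, a postsynaptic scaffold, held 43 and 158 summits and reached 4.59 (3.28 to 6.43).

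For siRBM10 over control the median was 0.600, with 229 of 309 giant genes below 1, beside a median of 1.04 over all genes. FSTL5, a secreted follistatin-like protein, had the lowest ratio at 0.148 (0.0867 to 0.251), from 141 control and 15 siRBM10 summits. RALYL followed at 0.155 (0.0926 to 0.260). CSMD3, a large membrane protein with CUB and sushi domains, had 200 and 25 summits and a ratio of 0.173 (0.114 to 0.263). GSE1 was again highest with 8.26 (5.20 to 13.1), then CDH4 with 5.11 (3.57 to 7.31) and PTPRN2 with 3.80 (2.87 to 5.04). PTPRN2 held 66 control and 181 siRBM10 summits.

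The 2 depletion libraries stood close to each other, with ratios of siRBM10 over siStar-PAP from 0.555 to 1.89 and a median of 1.09. At the low end, LRRC4C, the netrin-G ligand, had 74 siStar-PAP and 37 siRBM10 summits and a ratio of 0.555. ADGRL3, the adhesion receptor latrophilin-3, had 51 and 26 with 0.566, and GALNT13, which starts O-linked glycans, had 30 and 16 with 0.592. At the high end PDE4B, a cyclic AMP phosphodiesterase, had 30 and 51 summits with 1.89. GALNT17, of the same family as GALNT13, had 46 and 78 with 1.88, and ESRRG, an orphan nuclear receptor, had 25 and 41 with 1.82. None of these ratios reached 2-fold.

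Because GC content moved with the libraries, the number in each gene was also set beside the number that the density of shorter introns in the same GC classes would give, an alternative added after the data were seen. Under this measure 31 of 309 giant genes, 10.0%, were at least 2-fold lower on siStar-PAP than in control, against 7.48% of all genes, and 0 were higher, against 9.84%. For siRBM10 and control, 13 were lower, 4.21%, against 6.90%, and 0 were higher, against 8.57%. The shares of lower genes were thus near or under those of all genes, and the shares of higher genes were under them. The background genes, which include the giant genes, mostly hold fewer summits, so counting error calls more of them in either direction. Whether giant genes differ from other genes under this measure was not tested. Between the depletions 0 were lower and 0 were higher, against 2.08% and 2.17%. For identification, the genes lower in both comparisons with control, which share the control library, were DLGAP2, GABRG3, KIF26B, RALYL, RYR3, SMYD3 and STPG2. DLGAP2, which codes for a postsynaptic scaffold protein, stood at 1.74 of its expected number in control, 0.662 in siStar-PAP and 0.460 in siRBM10. KIF26B, a protein of the kinesin family, stood at 1.72, 0.385 and 0.366. GABRG3, a subunit of GABA receptors, stood at 1.53, 0.547 and 0.625.

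A few further genes were chosen for their distance from the GC expectation after their values were seen. NALF1, an auxiliary subunit of the sodium leak channel, held 50, 24 and 27 summits and stood at 0.389, 0.379 and 0.490 of expectation in control, siStar-PAP and siRBM10. MYO16, an unconventional myosin that also lies on chromosome 13, held 45, 29 and 25 and stood at 0.425, 0.473 and 0.461. DNAH14, an axonemal dynein heavy chain, stood at 1.17 in control, with an interval of 0.961 to 1.42 that includes 1, and at 2.03 (1.64 to 2.49) and 2.19 (1.75 to 2.70) in the depletions, from 107, 91 and 85 summits. SCAPER stood at 1.34, 1.43 and 1.35. NALF1 and MYO16 were thus low and SCAPER was high in all 3 libraries, while DNAH14 was high in the depletions.

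Of the giant genes, 39 were on a list of neuronal adhesion molecules and 45 on a list of synaptic channels, receptors and scaffolds, 84 in all. Over all summits, their summits per Mb were close to those of the other 225 giant genes in control, 154 against 157, and lower in both depletions. On siStar-PAP they held 71.8 against 81.9 per Mb, a ratio of 0.877, and on siRBM10 67.1 against 81.9, a ratio of 0.819. At a p-value of at most 0.01 control was lower as well. The ratio was then 0.869 in control, 0.879 in siStar-PAP and 0.819 in siRBM10. Relative to the numbers set by GC classes the ratios were 0.962 in control, 0.929 in siStar-PAP and 0.880 in siRBM10. The adhesion genes lay lower than the synaptic genes, with 66.8 against 77.3 per Mb on siStar-PAP and 62.5 against 72.0 on siRBM10. Of the 84 genes, 40 (47.6%) were lower and 7 (8.33%) higher on siStar-PAP than in control, and 39 (46.4%) were lower and 6 (7.14%) higher on siRBM10. Among the other giant genes, 43.1% were lower on siStar-PAP and 36.4% on siRBM10, and the difference between the groups was not tested. Between the depletions 0 of them differed 2-fold.

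With every summit counted, the longest adhesion genes held most summits in control and far fewer in both depletions. At a p-value of at most 0.01 control was the sparsest library over the giant genes together, and single genes were not examined at that threshold. CNTNAP2, a member of the neurexin superfamily on chromosome 7 from 145813094 to 148118090, held 402 summits in control, the most of any giant gene, 144 in siStar-PAP and 125 in siRBM10. PTPRD, a receptor phosphatase, held 290, 106 and 103. PCDH15, a protocadherin of hair-cell tip links, held 343, 91 and 90. ROBO2, a receptor for Slit in axon guidance, held 293, 70 and 49, and its ratio of shares on siRBM10 was 0.232 (0.171 to 0.314). NRXN3, a presynaptic neurexin, held 268, 104 and 123 and was less than 2-fold lower in share on siRBM10, with a ratio of 0.637.

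The longest synaptic genes ran the same way. DLG2, on chromosome 11 from 83166055 to 85339379, held 400 control, 116 siStar-PAP and 101 siRBM10 summits. CSMD1, a regulator of complement, held 302, 91 and 96. LRP1B, a large lipoprotein receptor-related protein, held 252, 81 and 68. MAGI2, a scaffold protein, held 246, 94 and 71.

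**Figure D3:**
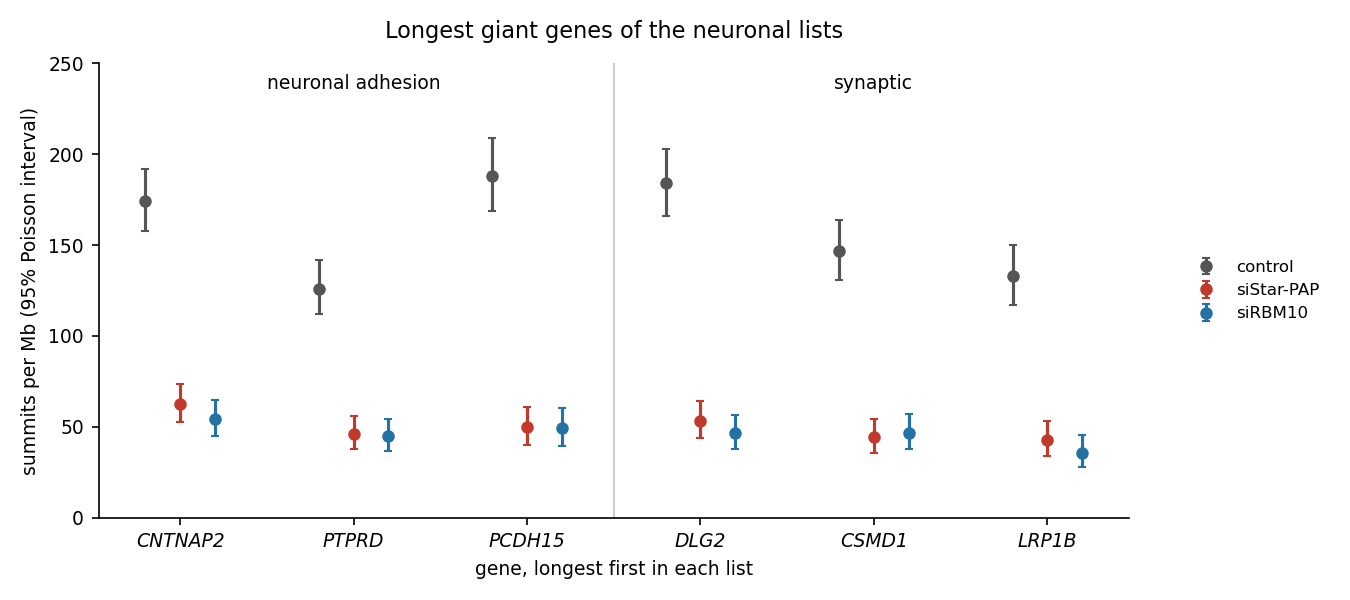
Summits per Mb of the 3 longest neuronal adhesion genes and the 3 longest synaptic genes among the giant genes, with a point per library and 95% Poisson intervals of counting error. Every summit is counted, whatever its score. Control lies between 126 in PTPRD and 188 in PCDH15, and both depletion libraries lie at or below 62.5, the siStar-PAP value of CNTNAP2.

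The other 3 lists of giant genes gave the following counts. Of 22 genes at common fragile sites, regions that break under replication stress, 12 (54.5%) were lower and 1 was higher on siStar-PAP, and 9 (40.9%) were lower and 1 was higher on siRBM10, beside 44.3% and 39.2% lower among all giant genes. FHIT and WWOX, both long fragile genes, held 222, 87 and 95 and 201, 159 and 157 summits. Of 5 RNA-binding protein genes, 3 were lower and 0 higher in both comparisons with control, too few for a share to be read. These were RBMS3, KHDRBS2 and RALYL, while CELF2 and RBFOX1, regulators of splicing, stayed within 2-fold. Of 17 genes of cyclic nucleotide, lipid and kinase signalling, 5 (29.4%) were lower and 3 (17.6%) higher on siStar-PAP, and 4 (23.5%) were lower and 3 (17.6%) higher on siRBM10, beside 8.09% and 8.41% higher among all giant genes. The higher ones were the protein kinase C genes PRKCA, with 42, 98 and 105 summits, and PRKCE, with 45, 83 and 100, and DOCK1, an activator of Rac, with 42, 79 and 62.

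Along the gene, depletion summits were sparser towards the middle, and control summits were slightly sparser towards the ends when every summit was counted. Each gene was cut into 10 equal parts from start to end. In these, intronic summits per Mb in control were 151 in the first, 165 in the third and 146 in the last. On siStar-PAP they were 84.6 in the first part, 71.3 in the fourth and 87.5 in the last. On siRBM10 the same ran from 80.4 over 71.6 in the fifth to 85.0. The density of the 2 end parts over the other 8 was 0.942 (0.919 to 0.967) in control, 1.14 (1.10 to 1.18) in siStar-PAP and 1.11 (1.07 to 1.15) in siRBM10. At a p-value of at most 0.01 the control ratio was 0.990 (0.943 to 1.04), whose interval includes 1, and the depletions stood at 1.11 and 1.09. In shorter genes it was 0.820, 1.03 and 1.03. GC content moved along too, with 38.8% in the first part of giant genes, 38.2% in the fourth and 39.7% in the last, and its part in the profile was not tested.

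**Figure D4:**
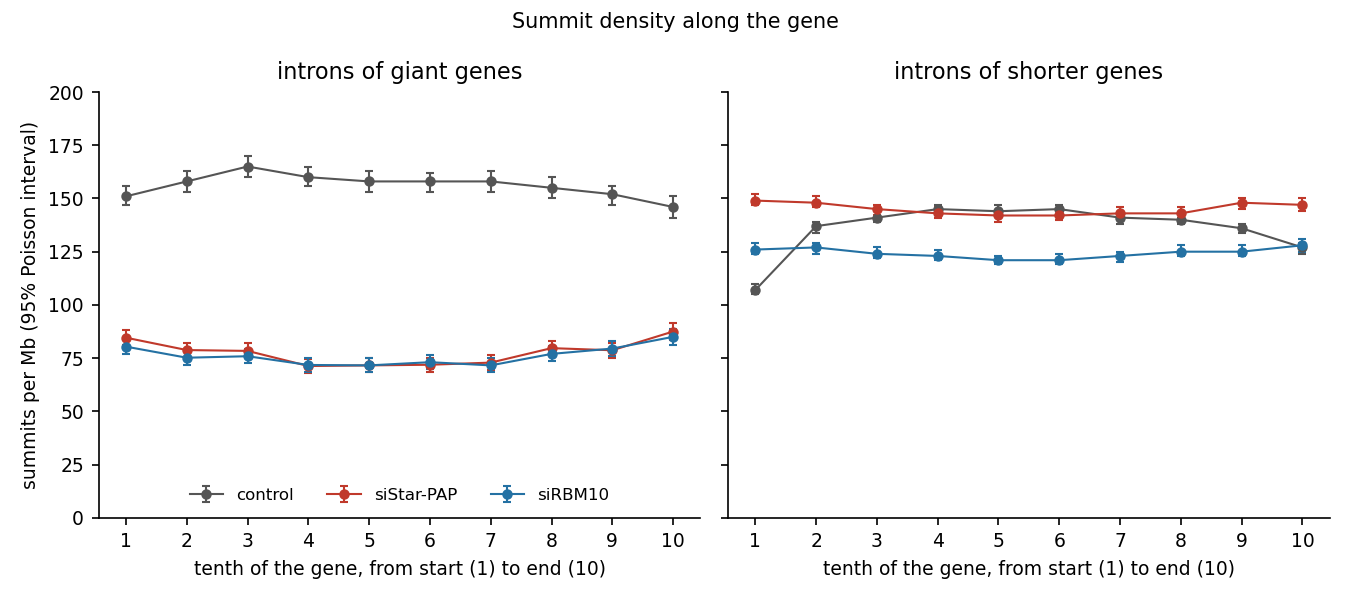
Intronic summits per Mb in 10 equal parts of the gene from the annotated start (1) to the annotated end (10), in 1 panel for giant genes and 1 for shorter genes, with a line per library and 95% Poisson intervals. In giant genes control peaks at 165 in the third part, and both depletion libraries dip to between 71.3 and 71.6 near the middle.

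The drop of control density at the start lay in the first 10 kb. There it was 108 (96.3 to 121) per Mb, against 154 from 10 to 50 kb and 160 beyond 200 kb, while GC content was 40.2%, 39.0% and 38.0%. The depletion libraries showed no such drop, with 97.9 on siStar-PAP and 83.3 on siRBM10 in the first 10 kb and 69.4 and 67.7 beyond 200 kb. In the last 10 kb the densities were 135, 107 and 89.9. First introns held 151, 77.2 and 76.6 per Mb, introns in the middle 158, 78.0 and 76.1, and last introns 151, 73.2 and 74.1. Introns under 10 kb held 141 in control, 87.5 in siStar-PAP and 84.4 in siRBM10, and introns of 200 kb or more held 155, 73.0 and 72.7. Distances and intron lengths were examined after the data were seen.

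Summits were spread more evenly in control than in the depletions. In 4988 blocks of 50 kb, the variance of the number over its mean was 1.35 in control and 2.03 in siStar-PAP, and siRBM10 lay just under siStar-PAP. Control left 34 blocks empty (0.682%), siStar-PAP 252 (5.05%) and siRBM10 268 (5.37%). The means were 7.82, 3.89 and 3.82 summits a block, so fewer empty blocks go with the longer list.

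Exons within giant genes were the part in which the lists stood closest in number. They include exons of any other annotated gene inside the same spans. They held 793 control, 726 siStar-PAP and 667 siRBM10 summits, which is 137 (128 to 147), 126 (117 to 135) and 116 (107 to 125) per Mb at a GC content of 43.3%. Over the introns of the same genes, exon density was 0.880 (0.820 to 0.944) in control, 1.62 (1.51 to 1.75) in siStar-PAP and 1.52 (1.40 to 1.64) in siRBM10.

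The few highest scores of the depletion libraries lay at coding exons of a few genes. Of the giant-gene summits with a score of 10 or more, 0 of 35 in control lay within 100 bp of a coding exon, against 6 of 7 in siStar-PAP and 8 of 10 in siRBM10. At 8 or more it was 1 of 56 in control, 7 of 12 in siStar-PAP and 14 of 30 in siRBM10, and at 4 or more 9 of 620, 42 of 1113 and 57 of 2727, so the pattern belongs to the top of the lists. Those at 10 or more fell in RUNX1, a transcription factor of blood formation, in ERBB4, a receptor tyrosine kinase, and in a record named only ENSG00000282278, at coding exons that are also those of the receptor tyrosine kinase PDGFRA. ALK, another receptor tyrosine kinase, was added to them for its score of 8.43 in siRBM10. These 4 genes were chosen after their values were seen, for their high depletion scores at coding exons. Lower depletion scores in the remaining genes follow from that choice, and the densities of the 4 genes count the summits that led to it. Within 100 bp of coding exons of any gene inside these 4 spans, 0.0470 Mb in all, lay 3 control, 22 siStar-PAP and 20 siRBM10 summits. That is 63.9 (13.2 to 187), 468 (294 to 709) and 426 (260 to 658) per Mb. The same distance around coding exons inside the spans of the other 305 genes held 150, 156 and 125 per Mb. The highest scores there were 9.07 in AFF3 in control, 6.60 in SEMA5A in siStar-PAP and 7.28 in PLCB1 in siRBM10.

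RUNX1 is read from the minus strand (chromosome 21, 36160098 to 37376965) and held 163, 148 and 200 summits. Near its coding exons the siStar-PAP library had 6 summits with scores of 4.59 to 16.73, and the siRBM10 library had 6 with scores of 8.68 to 25.78. Each of the 6 siRBM10 summits had a siStar-PAP summit within 500 bp, while control had 2 summits near coding exons, with scores of 2.32 and 2.21. Elsewhere in RUNX1 the highest scores were 9.14 in control, 6.13 in siStar-PAP and 6.31 in siRBM10, and the medians were 1.33, 2.64 and 2.97. In ERBB4, also read from the minus strand (chromosome 2, 212240442 to 213403565), both depletion libraries had a summit at the same base of a coding exon, 212530100, with scores of 10.68 and 14.02. Near its coding exons control held 1 summit, with a score of 1.33. The windows around the strongest siStar-PAP site of RUNX1 and the shared base of ERBB4, with coding bases in capitals, hold coding sequence only.
RUNX1 exon, chr21:36171663-36171723 (-): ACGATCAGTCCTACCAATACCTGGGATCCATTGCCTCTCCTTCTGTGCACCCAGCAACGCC
ERBB4 exon, chr2:212530070-212530130 (-): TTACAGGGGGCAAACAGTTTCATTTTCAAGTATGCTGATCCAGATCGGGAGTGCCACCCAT

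**Figure D5:**
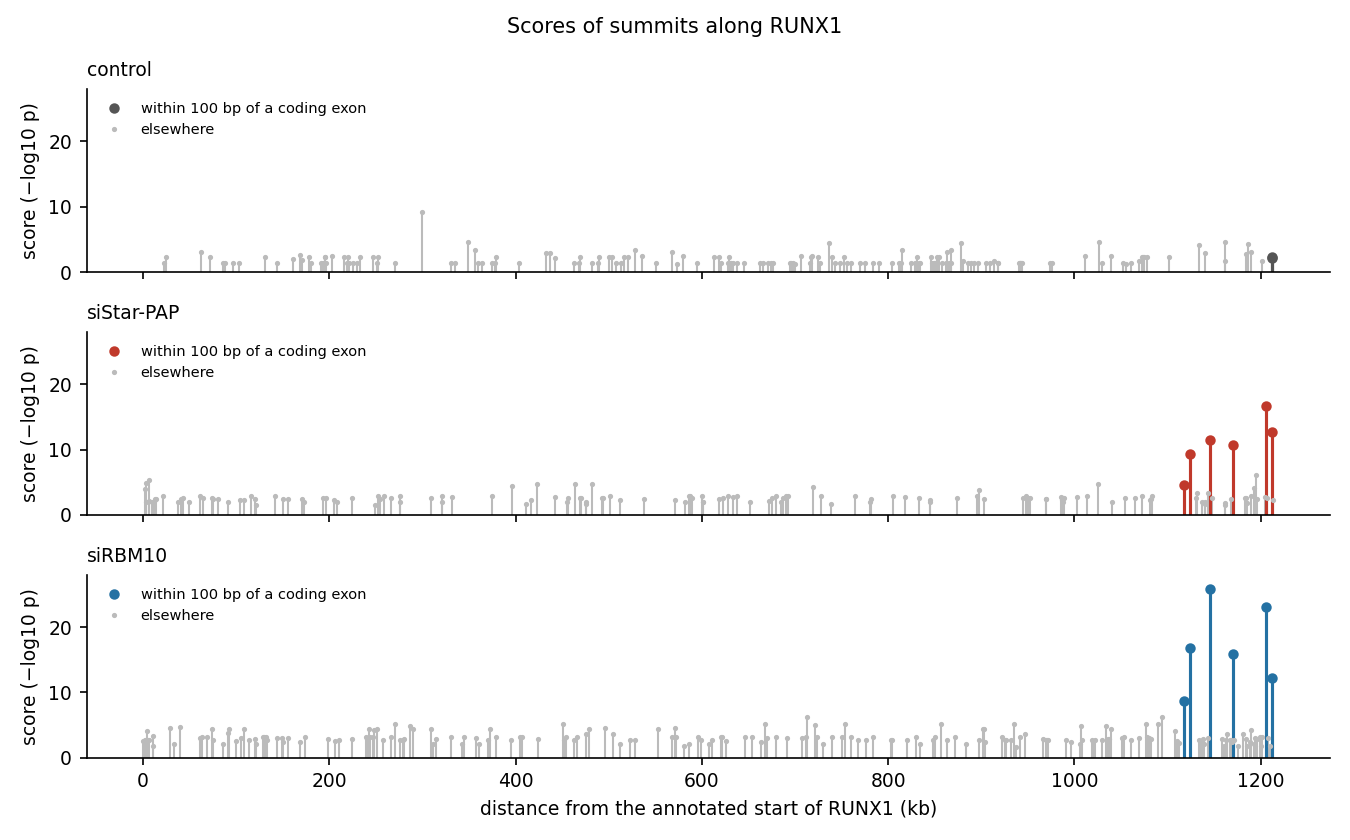
Scores of the summits of RUNX1 against the distance from the annotated start of the gene in kb, in 1 panel per library, with summits within 100 bp of a coding exon marked. The marked summits reach 16.73 in siStar-PAP and 25.78 in siRBM10 and stay at 2.32 or below in control.

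The DLG2 summit shown above was of another kind. It lay in an intron, 14228 bp from the nearest coding exon, at 85194994 with a score of 13.92 in siStar-PAP, and siRBM10 had a summit at 85195015 with a score of 12.32. Control had its closest summit 2911 bp from the former and 2890 bp from the latter. What gave the high scores in the depletion libraries at DLG2 and at the coding exons of the 4 genes was not tested. This includes carry-over from other libraries, such as those enriched for coding exons, so these scores and densities cannot be read as binding alone.

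Summits of giant genes were seldom shared. Within 500 bp, 8.09% of control summits had a siStar-PAP summit and 7.08% a siRBM10 summit. Of siStar-PAP summits 16.0% had a control and 11.5% a siRBM10 summit, and of siRBM10 summits 14.3% had a control and 11.8% a siStar-PAP summit. In introns of shorter genes the depletions shared more with each other, 17.9% of siStar-PAP and 20.7% of siRBM10 summits. Control summits there also shared more, 13.7% with siStar-PAP and 10.8% with siRBM10. Over all summits, the opposite held for depletion summits with a control neighbour. In both depletions these were less frequent in shorter introns than in giant genes, with 11.8% of siRBM10 summits in shorter introns. At a p-value of at most 0.01 this order turned around. The share was then 6.79% of siStar-PAP summits in giant genes against 8.13% in shorter introns. For siRBM10 it was 5.46% against 6.70%. Summits with a neighbour in both other libraries numbered 364 in control (0.916%), 360 in siStar-PAP (1.79%) and 356 in siRBM10 (1.81%), against 2.29%, 2.19% and 2.47% in shorter introns. The density of summits differs between these classes and libraries and sets how many neighbours are met.

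In the 20 nt around intronic summits of giant genes, GC content was 39.3% (39.2 to 39.4) in control, 44.4% (44.2 to 44.6) in siStar-PAP and 45.0% (44.8 to 45.2) in siRBM10. Every base of the same introns gave 38.7%. Control summits thus lay in sequence close to that of the introns at large. ATA, counted on the gene strand with overlaps, occurred 2.05 times per 100 nt over all bases, 1.93 times in control, 1.39 in siStar-PAP and 1.30 in siRBM10. A run of 6 T on the gene strand was found in 2.27% of windows over all bases and in 2.75%, 2.16% and 1.61% at the summits. In shorter introns GC content was 42.1% over all bases and 42.0%, 48.4% and 48.1% at summits, so the depletion libraries stood above their introns there as well. The 1000 intronic summits of highest score in giant genes had 47.4%, 47.8% and 43.9% GC.

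Repeats marked the strongest control sites, as in the windows of CDH4 and TRPM3 above, a measure added after these were seen. A word of 6 letters occurred 3 times or more in 7.86% of windows of 61 nt taken at every 1000th base of these introns. In control it did so in 9.39% (9.10 to 9.69) of windows with a score under 4, in 24.6% (21.2 to 28.3) from 4 to 10, and in 28 of 35 windows at 10 or more, 80.0% (64.1 to 90.0). In siStar-PAP the share was 7.86% under 4 and 9.64% from 4 to 10, and in siRBM10 it was 7.45% and 6.85% (5.95 to 7.89). At a score of 10 or more the depletion libraries had 0 of 1 and 1 of 4 intronic windows with such a word, too few to compare. The part of repeats in these scores was not tested.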

How the data were processed

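HITS-CLIP lists of 3 Star-PAP libraries from HEK293 cells were analysed, 1 per condition, grouped by the sample labels. The authors filtered reads, removed adapters and duplicates, used BWA to map the rest to hg19 and called peaks with MACS2 against IgG at a p-value of 0.05. The submitters' processing notes list FastQC 0.72, cutadapt 1.14, BWA 0.7.12 and MACS2. The deposited lists hold for each peak a summit of 1 bp and a score, the −log10 of the p-value. Strand, tag numbers and read totals are not given in them, so the depth is unknown and the number of summits sets the precision.

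Giant genes were taken from GENCODE release 44 mapped to hg19. The members and the gene lists were chosen with earlier results of these data known. Density was counted over determined bases, so 1 summit on an undetermined base was left out of it. Intervals are exact Poisson for densities, Wilson for shares and those of a ratio of separate Poisson counts for ratios. Genes were named by rule: the 5 highest and 5 lowest control densities, the 3 highest and 3 lowest ratios of each pair of libraries, the 5 longest genes of both neuronal lists, and for sites the 2 highest intronic scores a library and 4 sites in all 3 libraries. Some items that the rule names are not reported here. GC classes used windows of 10 kb. Position along the gene used genes of 10 kb or more. Sites on chromosome 8 were left out of the sequences shown. The alternatives were a p-value of at most 0.01, numbers in place of shares, other folds and minimums, equal list sizes, merged summits, other gene classes and other windows. Columns of the authors' own comparisons were not present in the lists used. Scripts ran under Python 3.11.15 with pandas 2.3.3, numpy 2.4.6, matplotlib 3.10.9 and scipy 1.17.1. The calls, the Poisson interval, the GC-weighted ratio and the shared sites were tested on simulated data, and the other steps were not.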

Additional observations from a re-analysis of the deposited data

How the results depend on the processing

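No paired analysis was possible because each condition had 1 library. No replicate could be left out for the same reason. Of 108 alternatives, 99 were planned and 9 were added after the data were seen; 50 stayed within the counting error or, for counts, within 1.5-fold. The density of giant genes over shorter introns in control changed direction, from 1.14 to 0.779 at a p-value of at most 0.01 and to 0.944 when weighted to GC classes, and was 1.06 beside genes of 100 to 500 kb. On siStar-PAP it was 0.609 at p at most 0.01, 0.741 weighted, 0.628 beside genes of 100 to 500 kb and 0.454 for genes of 1 Mb or more, and on siRBM10 it was 0.665, 0.837, 0.697 and 0.529.

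Summits per Mb at p at most 0.01 were 41.6 in control, 72.1 in siStar-PAP and 73.6 in siRBM10. They were 65.7 and 65.8 in the depletions for genes of 1 Mb or more and 82.3 and 81.1 without chromosomes 4 and 13. In siStar-PAP they were 77.5 for introns only, and in siRBM10 75.9 when summits within 500 bp were merged.

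Counts of genes moved with the rule. From numbers as deposited, 15 genes were higher on siStar-PAP than in control, 182 were lower and 16 higher on siRBM10 than in control, and 1 was lower on siRBM10 than on siStar-PAP. Relative to shorter introns 13, and with equal list sizes 16, were higher on siStar-PAP. Relative to GC classes, added later, 31 were lower and 0 higher on siStar-PAP and 13 lower and 0 higher on siRBM10. At 1.5-fold, 11 were lower and 25 higher on siRBM10 than on siStar-PAP.

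Neuronal over other giant genes gave 0.815 and 0.763 for adhesion alone in siStar-PAP and siRBM10. Synaptic genes alone gave 0.943 and 0.880 in the same libraries. Relative to GC classes the ratios were 0.962 in control, 0.929 in siStar-PAP and 0.880 in siRBM10. At p at most 0.01 they were 0.869, 0.879 and 0.819 in the same order. The end parts of the gene over the middle in control came to 0.990 at that threshold. GC content at summits minus that of the introns was 8.76, 9.15 and 5.21 percentage points for the 1000 highest scores in control, siStar-PAP and siRBM10, and 5.44 and 5.87 in 200 nt for the depletions. Shares with a neighbour at p at most 0.01 were 11.6% and 9.51% of control summits with siStar-PAP and siRBM10, 6.79% and 10.6% of siStar-PAP with control and siRBM10, and 5.46% and 10.4% of siRBM10 with control and siStar-PAP. Within 100 bp they were 2.14%, 1.63%, 4.24%, 3.08%, 3.30% and 3.14% in the same order. Beyond the choices that define an alternative, the cause of these shifts was not tested. Depth is unknown, and 1 library per condition leaves the spread between libraries unmeasured.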
